A study of Mus musculus with 12 samples.

Results

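The ERK pathway feedback genes are 10 genes whose transcripts are commonly read as a record of MAPK activity: the phosphatase genes Dusp4, Dusp5 and Dusp6, the Sprouty genes Spry1, Spry2 and Spry4, the Spred genes Spred1 and Spred2, and the ETS factor genes Etv4 and Etv5. They were taken as every probe set whose platform annotation gives exactly 1 gene symbol, that symbol being one of the 10. This gave 23 of the 28805 probe sets with 1 symbol, and 10 of 15858 genes. Dusp4, Dusp5, Dusp6, Spry1 and Etv4 had 1 probe set each, Spry2 and Etv5 had 2 each, Spry4 had 3, Spred2 had 4 and Spred1 had 7.

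Expression was measured on 12 Affymetrix mouse arrays, 3 for each of 4 groups. Every group started from C57BL6 bone marrow immortalised by HoxA9, a homeobox transcription factor; the cells were given a retrovirus that also encodes a green fluorescent protein, went into irradiated mice, and were recovered 4 weeks later by sorting marrow for GFP. IDH1mut cells carried pSF91-IDH1mut-IRES-GFP, a vector for a mutant of isocitrate dehydrogenase 1, a metabolic enzyme whose cancer mutants make R-2-hydroxyglutarate. R-2HG cells carried the empty vector in mice dosed with that metabolite (1 mg each day over 4 weeks). IDH1wt cells carried pSF91-IDH1wt-IRES-EGFP, for the wild-type enzyme, and empty vector cells carried the vector alone in mice with no stated treatment. The sources used here do not state which IDH1 mutation was used, the age of the mice or how many mice stand behind an array. For R-2HG the titles, source names and construct fields were followed where the description field differs by naming the mutant vector.

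Growth factor and cytokine receptors pass their signal through RAS, RAF and MEK to the kinase ERK, which enters the nucleus and switches on transcription. Among the genes it switches on are its own brakes: dual-specificity phosphatases (DUSP proteins) remove the activating phosphates from ERK, and Sprouty and SPRED proteins act upstream, between the receptors and RAF. In myeloid progenitors the pathway carries signals from KIT, FLT3 and the receptors for IL-3, GM-CSF and G-CSF.

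Each value below is a distance on the log2 scale from the centre of its probe set and says nothing about absolute level. Levels of different genes are therefore not compared, and the labelled cell type could not be checked by the presence of its markers. Between 2 arrays of a group the differences over all probe sets had an SD of 0.178 to 0.362, and between arrays of different groups an SD of 0.294 to 0.555; 0 pairs were identical. Both ends of the range within groups were R-2HG pairs. The SD was 0.178 between R-2HG replicates 1 and 2, and 0.350 and 0.362 between these and R-2HG replicate 3. From R-2HG replicate 3 to arrays of other groups it was 0.346 for IDH1mut replicate 1 and 0.362 for empty vector replicate 1. R-2HG replicates 1 and 2 thus stood apart from R-2HG replicate 3. Pairwise calls with R-2HG and the counts of R-2HG against empty vector are therefore given with and without them. The erythroid and B cell marker counts are given only with them. The reported F test, values per array and counts of overlap hold all 12 arrays. Without R-2HG replicates 1 and 2, 1 array is left, whose spread is taken from the other groups. The labels do not say whether replicates are separate mice; the spread behind each p-value is that between these arrays and may be technical. In RNA from a sorted population, fewer cells of a type and less RNA per cell cannot be told apart.

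Dusp6 was higher in IDH1mut cells than in each of the other 3 groups, and higher in R-2HG than in empty vector cells. Spry2 and Spred1 were lower in R-2HG than in empty vector cells, so R-2HG had calls in both directions. The other 7 genes passed in none of the 5 comparisons of the design. An F test over the 4 groups by limma, adjusted by Benjamini-Hochberg over all 15858 genes, called 4 of the 10 at an adjusted p under 0.05, where 54.6% of all genes were called, so the share of feedback genes was not above the background. The 4 were Dusp6 (adjusted p = 0.000313), Spred1 (adjusted p = 0.000679), Spry2 (adjusted p = 0.00915) and Etv4 (adjusted p = 0.0462). From the lowest to the highest group mean the distance was 0.99 for Spry2, 0.86 for Dusp6, 0.59 for Spred1 and 0.50 for Etv4, against a median of 0.36 over all genes. For the other 6 genes it lay between 0.084 for Dusp4 and 0.35 for Etv5.

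**Figure D1:**
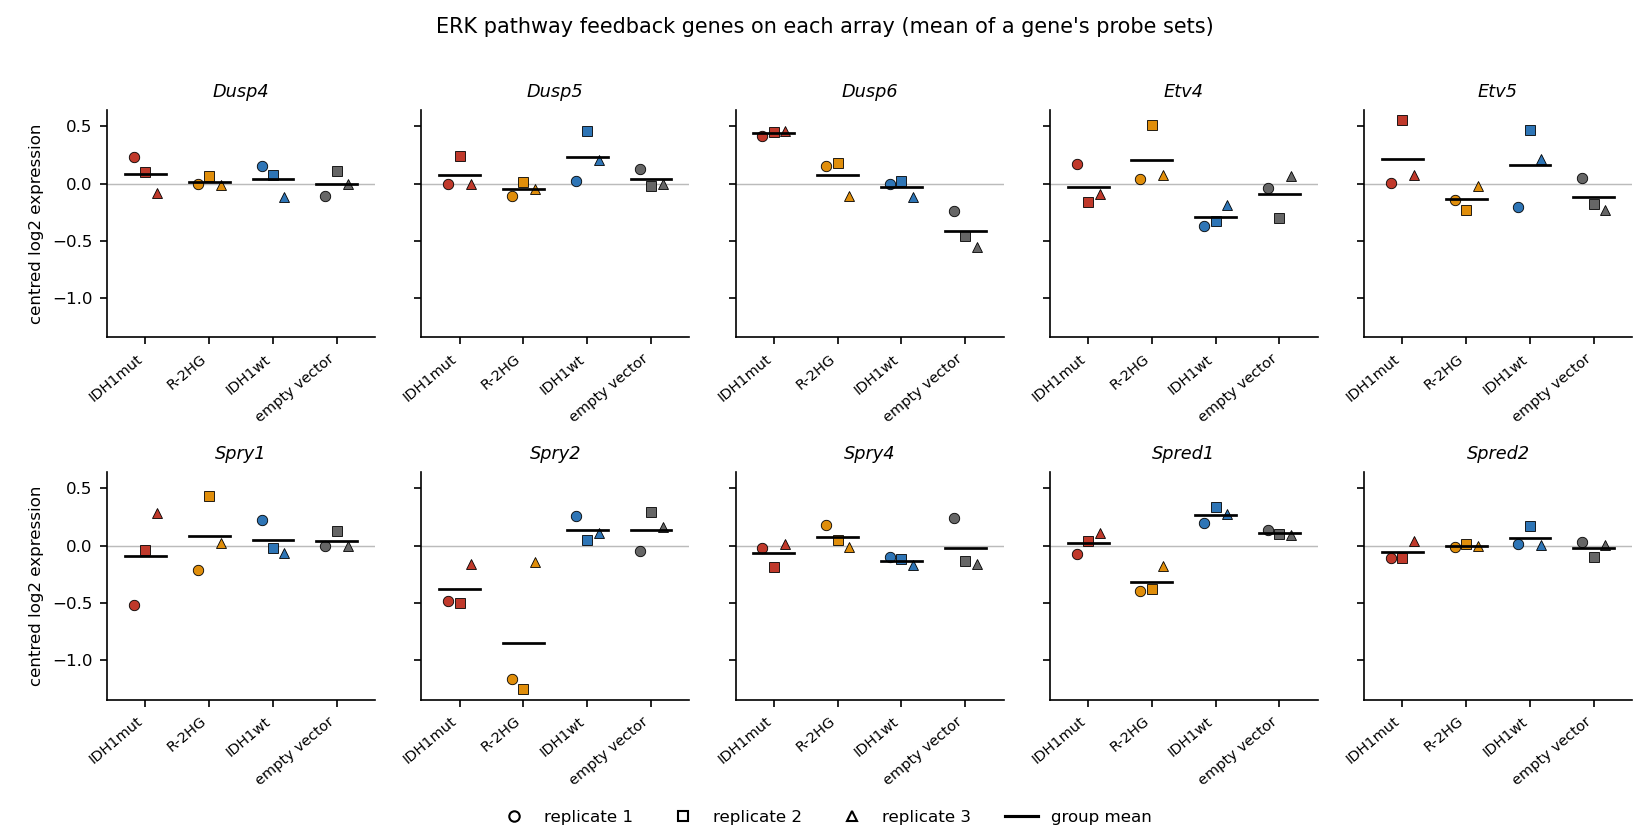
Centred log2 expression (vertical axis) of the 10 feedback genes on each of the 12 arrays, by group, with symbols for the replicate and a bar at the group mean. The 3 IDH1mut arrays lie together at 0.42 to 0.46 for Dusp6, above all others, and Spry2 and Spred1 are low on R-2HG replicates 1 and 2.

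DUSP6 is a cytoplasmic phosphatase specific for ERK. Dusp6 stood at 0.42, 0.45 and 0.46 in IDH1mut replicates 1, 2 and 3, at 0.16, 0.18 and -0.11 in R-2HG, at -0.0041, 0.023 and -0.11 in IDH1wt and at -0.24, -0.46 and -0.55 in empty vector. All 3 IDH1mut arrays were above every other array and all 3 empty vector arrays below every other array, with R-2HG and IDH1wt overlapping between them. The group means were 0.44 ± 0.022 in IDH1mut, 0.076 ± 0.16 in R-2HG, -0.032 ± 0.073 in IDH1wt and -0.42 ± 0.16 in empty vector (SD, n = 3 each).

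Dusp6 rose in IDH1mut against empty vector by a log2 fold change of 0.86 ± 0.097 (SE), or 1.81-fold (limma, adjusted p = 0.000113), and passed in all 13 other settings run on genes, at 0.79 to 0.95. The empty vector arrays also stood apart on the heat shock genes Hspa1a and Hspa1b, described with the other pathway genes. Dusp6 was higher in IDH1mut than in IDH1wt by 0.47 ± 0.097 (adjusted p = 0.00681), again in all 13, and higher than in R-2HG by 0.37 ± 0.097 (adjusted p = 0.0140). Dusp6 also rose in R-2HG against empty vector, by 0.49 ± 0.097 (adjusted p = 0.00211). Both results with R-2HG passed in 13 of 14 settings and missed the threshold without R-2HG replicates 1 and 2: the difference of R-2HG from empty vector was then 0.31 (adjusted p = 0.139, from 2.96e-05 to 0.139 over the settings), and that of IDH1mut from R-2HG was 0.55 (adjusted p = 0.0509, from 0.0124 to 0.0509).

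IDH1wt and empty vector did not overlap for Dusp6, but the difference of 0.38 ± 0.097 missed the threshold (adjusted p = 0.0786). It passed in 3 of 13 settings: after a second quantile normalization (0.43, adjusted p = 0.0378), with array weights (0.41, adjusted p = 0.0118) and without empty vector replicate 1 (0.47, adjusted p = 0.0420). Over the 13 the adjusted p ran from 0.0118 to 0.271. R-2HG and IDH1wt, neighbours in the order of means, differed by 0.11 (95% confidence interval -0.10 to 0.32, adjusted p = 0.383) in a comparison added after the data were seen, and with replicate 3 as the only R-2HG array by -0.079 (adjusted p = 0.722).

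DUSP5 and DUSP4 are nuclear phosphatases of the same family. Dusp5 had the values 0, 0.24 and 0 in IDH1mut, -0.11, 0.019 and -0.044 in R-2HG, 0.021, 0.46 and 0.21 in IDH1wt and 0.13, -0.017 and 0 in empty vector. IDH1wt replicate 2 was the highest array, and the groups overlapped except for R-2HG and IDH1wt. The log2 fold change of Dusp5 was 0.043 in IDH1mut against empty vector (95% confidence interval -0.19 to 0.28) and -0.081 in R-2HG against empty vector (95% confidence interval -0.32 to 0.15). In the added comparison of R-2HG with IDH1wt it was -0.27 (adjusted p = 0.0580, from 0.0177 to 0.304 over 14 settings, of which 3 passed). Dusp4 ran from -0.081 to 0.23 in IDH1mut, from -0.016 to 0.063 in R-2HG, from -0.11 to 0.15 in IDH1wt and from -0.11 to 0.11 in empty vector. Every group overlapped every other for Dusp4, and its log2 fold changes in the 5 comparisons lay between 0.017 and 0.084.

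The 250 bases upstream of Dusp6, which differed between groups, and of Dusp5, a phosphatase gene of the same family that passed in none of the 5 comparisons, are shown for comparison, from RefSeq on build GRCm38.p6. Capitals mark matches on either strand to a CArG box, the site of serum response factor at many immediate early genes, or to TGACG, the half-site of CREB family factors. CCGGAA, a motif of ETS factors, was searched on both strands too. The Dusp6 window is chr10:99262981-99263230 on the plus strand and the Dusp5 window is chr19:53528895-53529144 on the plus strand, both directly before the annotated gene start.
Dusp6: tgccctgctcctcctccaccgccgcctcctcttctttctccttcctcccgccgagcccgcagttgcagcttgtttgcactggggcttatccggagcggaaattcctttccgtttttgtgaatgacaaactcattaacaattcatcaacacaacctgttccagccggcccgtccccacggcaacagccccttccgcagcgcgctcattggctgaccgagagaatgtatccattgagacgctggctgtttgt
Dusp5: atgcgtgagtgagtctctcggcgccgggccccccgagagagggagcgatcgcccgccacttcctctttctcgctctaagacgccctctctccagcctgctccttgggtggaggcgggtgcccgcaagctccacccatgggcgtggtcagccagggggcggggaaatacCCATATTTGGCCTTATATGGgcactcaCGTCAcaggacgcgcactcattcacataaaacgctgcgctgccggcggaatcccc
The Dusp5 window held 2 CArG boxes, which begin 82 and 72 bases before the gene start and abut each other, and 1 TGACG on the minus strand 55 bases before it. The Dusp6 window held no match to the 3 motifs. Of the 32851 windows of this length in the table, 1.467% held a CArG box, 17.77% held TGACG and 12.03% held CCGGAA. Windows were listed for 7 of the 10 genes, 8 windows in all, of which 1 held a CArG box (Dusp5), 2 held TGACG (Dusp5 and Spred2) and 0 held CCGGAA. These are matches of letters in a short window and not measured sites.

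The Sprouty genes encode membrane-associated inhibitors that act between receptors and RAF. Spry2 stood at -0.48, -0.50 and -0.16 in IDH1mut, at -1.16, -1.25 and -0.14 in R-2HG, at 0.26, 0.051 and 0.12 in IDH1wt and at -0.046, 0.30 and 0.16 in empty vector. R-2HG replicates 1 and 2 were far below all other arrays, while R-2HG replicate 3 lay beside the highest IDH1mut array. All 3 IDH1mut arrays also lay below all 6 arrays of IDH1wt and empty vector.

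Spry2 fell in R-2HG against empty vector by 0.99 ± 0.23 on the log2 scale, to 0.504 of the empty vector level (limma, adjusted p = 0.00569). Without R-2HG replicates 1 and 2 the log2 fold change was -0.28 and did not pass (adjusted p = 0.306, from 1.40e-05 to 0.306 over 14 settings). In IDH1mut it was -0.52 ± 0.23 against empty vector (adjusted p = 0.135) and -0.52 ± 0.23 against IDH1wt (adjusted p = 0.162), neither past the threshold. Each of these passed in 3 of 13 settings, namely a second quantile normalization, array weights and a fit of only the 6 arrays compared, with adjusted p from 0.0122 to 0.30 and from 0.0148 to 0.324. The SE comes from a spread pooled over the 4 groups, R-2HG included. For Spry2 the SD was 0.62 in R-2HG, against 0.19 in IDH1mut, 0.10 in IDH1wt and 0.17 in empty vector. With only the 6 arrays compared, limma gave an adjusted p of 0.0188 against empty vector and 0.0229 against IDH1wt. IDH1mut and R-2HG differed by 0.47 (95% confidence interval -0.035 to 0.98, adjusted p = 0.128). That difference passed in 2 of 14 settings, without R-2HG replicate 3 (0.83, adjusted p = 0.000561) and with array weights (0.69, adjusted p = 0.00495), and changed sign without R-2HG replicates 1 and 2 (-0.24, adjusted p = 0.426, in a range from 0.000561 to 0.843 over the settings).

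The Spry2 result came from 1 of its 2 probe sets. Probe set 1436584_at stood at -0.90, -0.83 and -0.36 in IDH1mut, at -2.15, -2.33 and -0.11 in R-2HG, at 0.45, 0.10 and 0.23 in IDH1wt and at 0.16, 0.59 and 0.61 in empty vector. Its log2 fold change in R-2HG against empty vector was -1.98 (adjusted p = 0.00370 by limma over single probe sets), and -0.56 with replicate 3 as the only R-2HG array (adjusted p = 0.152). Probe set 1421656_at ran from -0.17 to 0.049 in IDH1mut, from -0.18 to -0.17 in R-2HG, from 0 to 0.063 in IDH1wt and from -0.28 to 0 in empty vector. The same contrast gave 0.0029 there (adjusted p = 0.983). On centred values it cannot be said whether the second probe set detected its transcript.

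Spry1 passed in no comparison under any setting run on genes. Spry4 passed in R-2HG against IDH1wt in 1 of 13 settings, with array weights (0.26, adjusted p = 0.0342, in a range from 0.0342 to 0.668), and in no other case. Spry1 had the values -0.52, -0.038 and 0.28 in IDH1mut, -0.21, 0.43 and 0.025 in R-2HG, 0.22, -0.018 and -0.066 in IDH1wt and 0, 0.13 and 0 in empty vector. Its arrays spread widely within IDH1mut (SD 0.40) and R-2HG (SD 0.32), and its log2 fold change of -0.13 in IDH1mut against empty vector had a 95% confidence interval of -0.55 to 0.28. Spry4 ran from -0.18 to 0.014 in IDH1mut, from -0.013 to 0.19 in R-2HG, from -0.17 to -0.10 in IDH1wt and from -0.16 to 0.24 in empty vector, and none of its 3 probe sets was called.

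**Figure D2:**
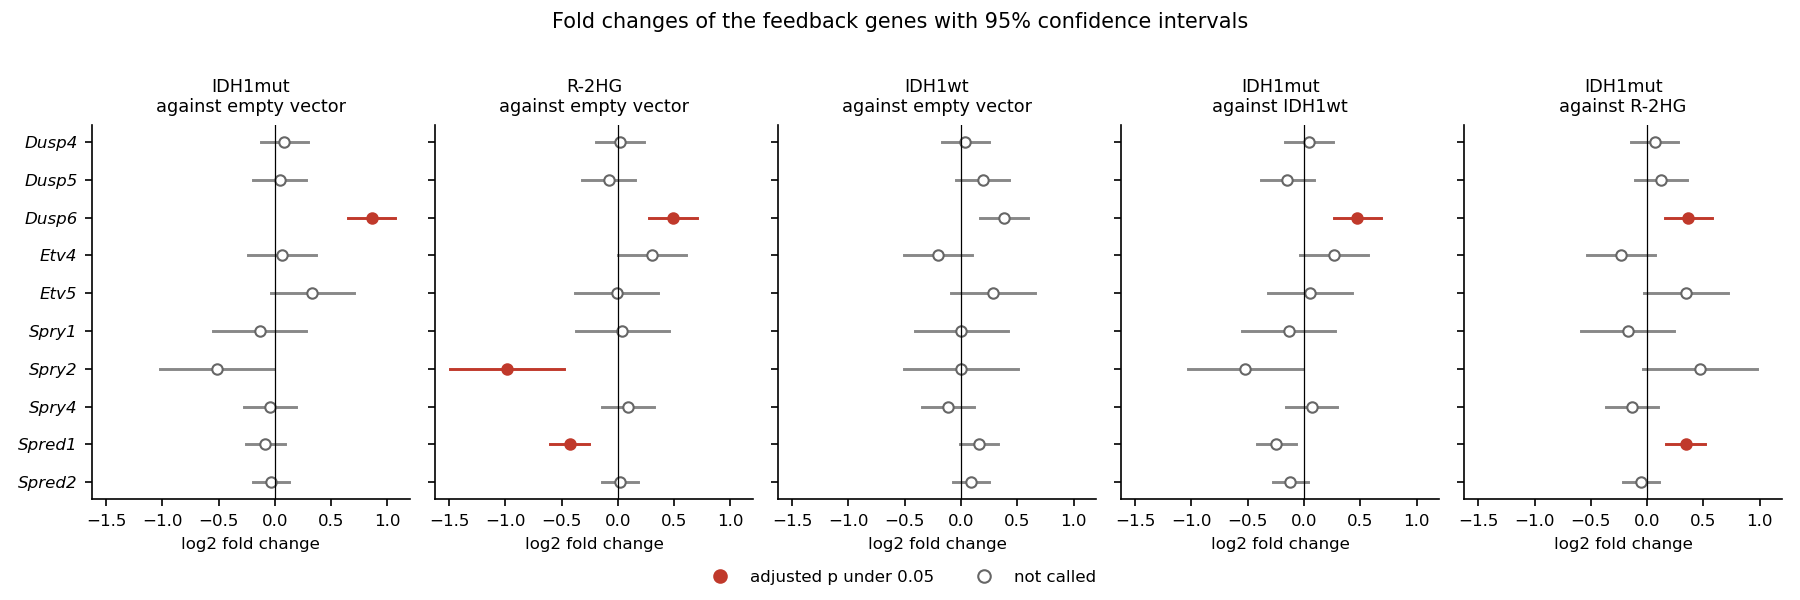
Log2 fold changes (horizontal axis) of the 10 feedback genes as points with 95% confidence intervals as lines, in the 5 comparisons of the design. Filled red points passed an adjusted p of 0.05; Dusp6 did so in 4 of the 5 comparisons, and 0 genes did so in IDH1wt against empty vector.

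The SPRED proteins are relatives of Sprouty that bring neurofibromin, a RAS inactivator, to the membrane. Spred1 stood at -0.074, 0.043 and 0.11 in IDH1mut, at -0.39, -0.37 and -0.18 in R-2HG, at 0.20, 0.34 and 0.27 in IDH1wt and at 0.14, 0.10 and 0.098 in empty vector. All 3 R-2HG arrays were below every other array, replicate 3 the least, and all 3 IDH1wt arrays were above every other array.

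Spred1 fell in R-2HG against empty vector by 0.43 ± 0.079 on the log2 scale, to 0.743 of the empty vector level (limma, adjusted p = 0.00136). It was higher in IDH1mut than in R-2HG by 0.34 ± 0.079 (adjusted p = 0.00740). Neither passed without R-2HG replicates 1 and 2, at -0.29 (adjusted p = 0.101, from 2.64e-05 to 0.101 over 14 settings) and at 0.21 (adjusted p = 0.282, from 0.000593 to 0.282), and the second also missed with the probe set of highest SD (0.43, adjusted p = 0.0797). R-2HG was below IDH1wt by 0.59 ± 0.079 (adjusted p = 0.000272), a comparison added later that passed in all 14 settings. In IDH1mut against IDH1wt Spred1 was at -0.25 ± 0.079 and just missed the threshold (adjusted p = 0.0543, from 0.0194 to 0.162 over 13 settings, of which 3 passed).

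Of the 7 Spred1 probe sets, 5 were called lower in R-2HG than in empty vector, with log2 fold changes from -0.79 to -0.45, and none was called higher. Probe set 1428777_at was at -0.13 (adjusted p = 0.447) and 1443652_x_at at 0.18 (adjusted p = 0.330), with 0.27, 0.30 and 0 in R-2HG and 0, 0.044 and 0 in empty vector. The annotation gives 1443652_x_at the same source sequence entry as 1460116_s_at, which fell by 0.59. Without R-2HG replicates 1 and 2 limma called 0 of the 7, with log2 fold changes from -0.52 to -0.015. In IDH1mut against R-2HG limma called 3 of the 7 higher and 1443652_x_at lower, at -0.42 (adjusted p = 0.0365). With replicate 3 as the only R-2HG array 1443652_x_at was at -0.22. Spred2, a close relative of Spred1, lay between -0.11 and 0.17 on all 12 arrays, and none of its 4 probe sets was called.

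**Figure D3:**
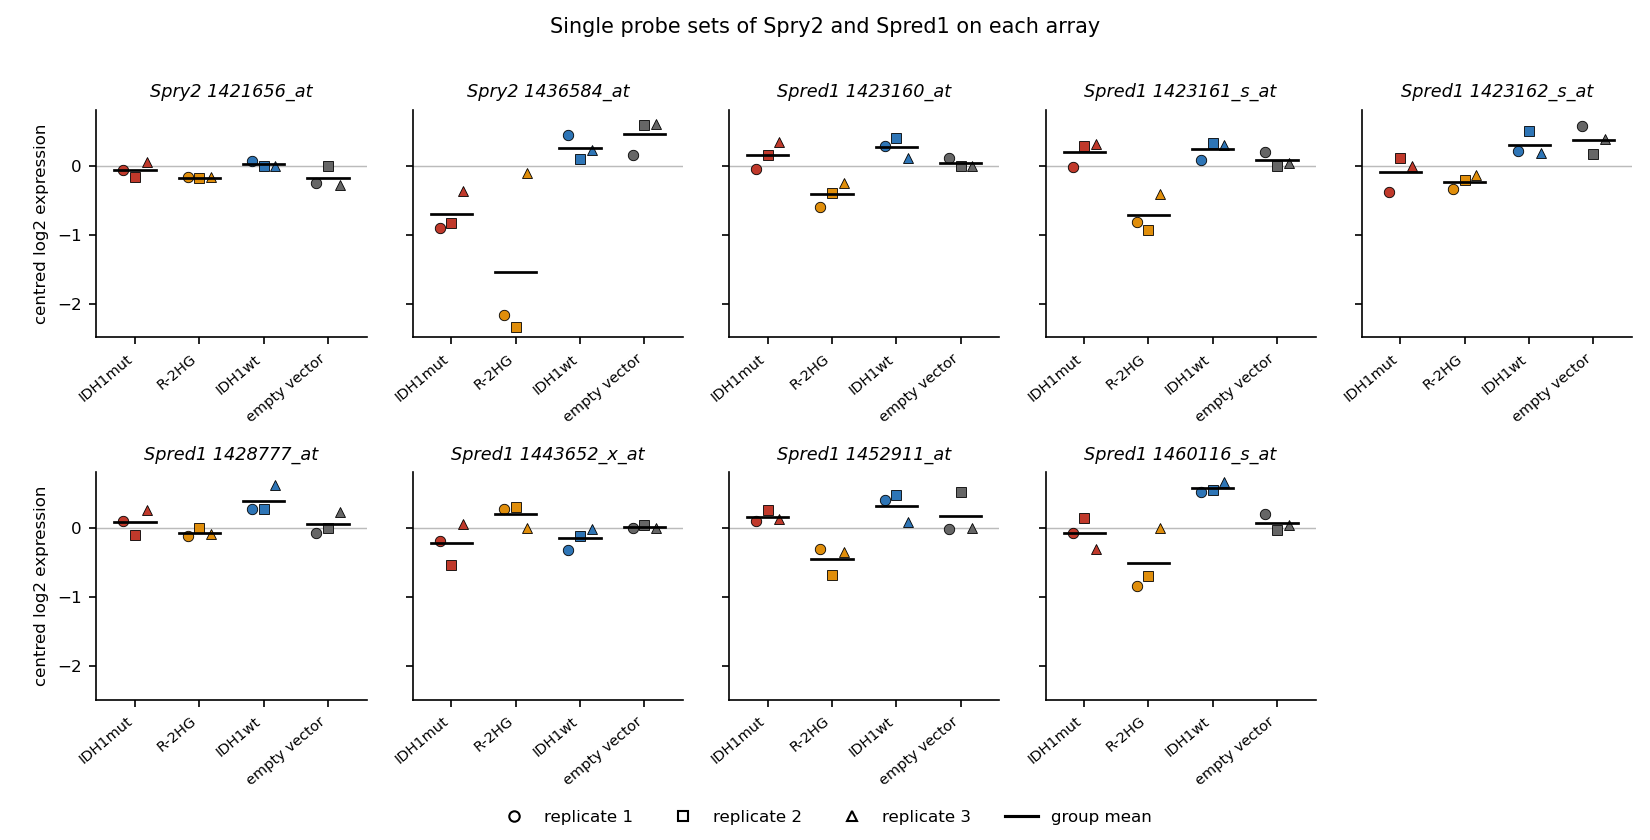
Centred log2 expression (vertical axis) of the 2 probe sets of Spry2 and the 7 of Spred1 on each array, by group, with a bar at the group mean. Spry2 1436584_at stands at -2.15 and -2.33 on R-2HG replicates 1 and 2, while 1421656_at lies between -0.28 and 0.063 on all arrays.

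ETV4 and ETV5 are ETS transcription factors of the PEA3 group, induced by ERK downstream of fibroblast growth factor. Etv4 had the values 0.17, -0.16 and -0.090 in IDH1mut, 0.039, 0.51 and 0.077 in R-2HG, -0.37, -0.33 and -0.18 in IDH1wt and -0.034, -0.30 and 0.064 in empty vector. R-2HG replicate 2 was the highest array, and IDH1wt had the lowest mean but overlapped empty vector. Against empty vector, Etv4 was at 0.30 ± 0.14 in R-2HG (adjusted p = 0.102; 0.17 with replicate 3 alone) and at -0.20 ± 0.14 in IDH1wt (adjusted p = 0.502). In the added comparison R-2HG was above IDH1wt by 0.50 ± 0.14 (adjusted p = 0.0123). It did not pass without R-2HG replicate 2 (0.35, adjusted p = 0.0532) or without replicates 1 and 2 (0.37, adjusted p = 0.170), in a range from 0.0101 to 0.170 over 14 settings.

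Etv5 had the values 0.0099, 0.56 and 0.075 in IDH1mut, -0.14, -0.23 and -0.024 in R-2HG, -0.20, 0.47 and 0.22 in IDH1wt and 0.047, -0.18 and -0.23 in empty vector. Replicate 2 of IDH1mut and replicate 2 of IDH1wt were the highest, and the groups overlapped except for IDH1mut and R-2HG. Etv5 was at 0.33 ± 0.17 in IDH1mut against empty vector (adjusted p = 0.189) and passed in 1 of 13 settings, with array weights (0.47, adjusted p = 0.0297, in a range from 0.0297 to 0.546). Its 2 probe sets differed in IDH1mut against R-2HG, where 1428142_at was higher by 0.69 (adjusted p = 0.0202) and 1450082_s_at was at 0.0050 (adjusted p = 0.989); without R-2HG replicates 1 and 2 they were at 0.33 and 0.14, neither called. With its probe set of highest SD alone, Etv5 passed in IDH1mut against R-2HG (0.69, adjusted p = 0.0183) and in R-2HG against IDH1wt (-0.63, adjusted p = 0.0217). Each of these comparisons had 2 passes in 14 settings, the other with array weights in the first (0.47, adjusted p = 0.0228) and without IDH1wt replicate 1 in the second (-0.47, adjusted p = 0.0364), and the adjusted p ran from 0.0183 to 0.622 and from 0.0217 to 0.680.

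Counted by comparison, the feedback genes gave 0 to 3 calls, each read against the share of all genes called. In IDH1mut against empty vector 1 of 10 was higher and 0 were lower, where 22.6% of all genes were called, 10.5% higher and 12.1% lower. In R-2HG against empty vector 1 of 10 was higher and 2 were lower, where 40.8% of all genes were called, 16.5% higher and 24.3% lower; 0 of 10 were called, and 11.5% of all genes, without R-2HG replicates 1 and 2. In IDH1wt against empty vector limma called 0 of 10, with 1 at an unadjusted p under 0.05 and 1 each after quantile normalization and with array weights, where 1.35% of all genes were called, 0.788% higher and 0.561% lower. In IDH1mut against IDH1wt 1 of 10 was higher and 0 were lower, where 15.7% of all genes were called, 8.37% higher and 7.29% lower. In IDH1mut against R-2HG 2 of 10 were higher and 0 were lower, where 36% of all genes were called, 20.3% higher and 15.8% lower. In R-2HG against IDH1wt, the added comparison, 1 of 10 was higher (Etv4) and 2 were lower (Spry2 and Spred1), where 44.4% of all genes were called, 21.4% higher and 23% lower.

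Groups without overlap were counted in the same way. IDH1mut and empty vector did not overlap for 2 of 10 feedback genes, against 41.1% of all genes, and R-2HG and empty vector for 3, against 53.5%. IDH1wt and empty vector did not overlap for 2, against 23.8%, and IDH1mut and IDH1wt for 4, against 32.7%. IDH1mut and R-2HG did not overlap for 3, against 47.9%, and R-2HG and IDH1wt for 5, against 53.4%. Of the 23 single probe sets, 2 were called in IDH1mut against empty vector (21.9% of all probe sets), 7 in R-2HG against empty vector (39.5%) and 0 by limma in IDH1wt against empty vector (1.94%). A further 2 were called in IDH1mut against IDH1wt (14.1%), 6 in IDH1mut against R-2HG (34%) and 9 in R-2HG against IDH1wt (40.7%). Without R-2HG replicates 1 and 2 limma called 0 of the 23 in R-2HG against empty vector (10.5% of all probe sets), 0 in IDH1mut against R-2HG (2.18%) and 1 in R-2HG against IDH1wt (8.32%). The median log2 fold change of the 10 genes against empty vector was 0.0043 in IDH1mut, 0.019 in R-2HG and 0.062 in IDH1wt, beside -0.047, 0.0030 and -0.036 over all genes. These 3 share the empty vector arrays.

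Further phosphatase and feedback genes outside the 10 (19 of 20 listed were measured) gave calls in both directions. Over all genes 22.6% were called in IDH1mut against empty vector, 10.5% higher and 12.1% lower. The share was 40.8% in R-2HG against empty vector, 16.5% higher and 24.3% lower. In IDH1mut against empty vector 2 were higher and 2 lower, and in R-2HG 4 were higher and 1 lower, or 0 and 1 without R-2HG replicates 1 and 2. Dusp16, a phosphatase for JNK and p38 kinases, had the values 0.20, 0.31 and 0.49 in IDH1mut, -0.085, 0 and 0.33 in R-2HG, -0.47, 0.66 and 0.41 in IDH1wt and -0.45, -1.15 and -0.91 in empty vector. It rose by 1.17 ± 0.25 in IDH1mut against empty vector (adjusted p = 0.00606), and as for Dusp6 those groups did not overlap. Dusp7, another gene of this list, went the other way in IDH1mut by limma. Its log2 fold change was -0.26 ± 0.064 against empty vector (adjusted p = 0.0122) and -0.25 ± 0.064 against IDH1wt (adjusted p = 0.0191). Dusp2, a nuclear phosphatase of activated leukocytes, fell by 1.14 ± 0.15 in R-2HG (adjusted p = 0.000218), with -0.73, -0.83 and -0.67 in R-2HG and 0.36, 0.38 and 0.45 in empty vector. With replicate 3 as the only R-2HG array Dusp2 was at -1.07 (adjusted p = 0.0176). Dusp14 and Rasa2 were among the higher genes in R-2HG against empty vector by limma. They rose by 0.65 ± 0.15 (adjusted p = 0.00591) and by 0.46 ± 0.12 (adjusted p = 0.0102). With replicate 3 as the only R-2HG array Dusp14 was at 0.56 and Rasa2 at 0.25. In IDH1wt against empty vector limma called 0 of the 19, with 1 at an unadjusted p under 0.05.

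Members of the RAS, RAF, MEK and ERK cascade (19 of 24 listed were measured) were higher in 4 cases and lower in 0 in IDH1mut against empty vector. Over all genes 22.6% were called in that comparison and 40.8% in R-2HG against empty vector. In R-2HG 3 were higher and 5 lower, or 1 and 0 without R-2HG replicates 1 and 2. Braf, a RAF kinase, rose by 0.45 ± 0.089 in IDH1mut (adjusted p = 0.00370) and by 0.56 ± 0.089 in R-2HG (adjusted p = 0.000584); with replicate 3 as the only R-2HG array Braf stood 0.41 above empty vector (adjusted p = 0.0498). Sos2, an exchange factor that loads RAS with GTP, rose by 0.35 ± 0.071 in IDH1mut (adjusted p = 0.00429). Nras, a RAS gene, was among the lower genes in R-2HG against empty vector, at -0.48 ± 0.095 (limma, adjusted p = 0.00209). With replicate 3 as the only R-2HG array Nras was at -0.25. In IDH1wt against empty vector limma called 0 of the 19, with 2 at an unadjusted p under 0.05.

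Receptors upstream of ERK (14 of 15 listed were measured) were higher in 5 and lower in 2 cases in IDH1mut against empty vector, and higher in 4 and lower in 5 in R-2HG, or 3 and 2 without R-2HG replicates 1 and 2. Over all genes 22.6% were called in IDH1mut and 40.8% in R-2HG, each against empty vector. Il3ra, the alpha chain of the IL-3 receptor, stood at -0.12, -0.60 and -0.41 in IDH1mut, at -0.53, -0.51 and -0.62 in R-2HG, at 0.37, 0.39 and 0.41 in IDH1wt and at 0.25, 0.52 and 0.63 in empty vector. The 6 arrays of IDH1mut and R-2HG lay below the other 6, with log2 fold changes against empty vector of -0.84 ± 0.12 (adjusted p = 0.000463) and -1.02 ± 0.12 (adjusted p = 0.000119). Csf3r, the G-CSF receptor and a marker of maturing neutrophils, rose by 0.80 ± 0.11 in IDH1mut (adjusted p = 0.000489) and by 0.77 ± 0.11 in R-2HG (adjusted p = 0.000393). From R-2HG replicate 3 alone the values were -1.09 for Il3ra (adjusted p = 0.00728) and 0.96 for Csf3r (adjusted p = 0.00638). In IDH1wt against empty vector limma called 0 of the 14, with 4 at an unadjusted p under 0.05.

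ERK-induced transcription factors and early targets (22 of 23 listed were measured) were higher in 4 and lower in 8 cases in IDH1mut, higher in 6 and lower in 5 in R-2HG, and higher in 0 and lower in 6 in IDH1wt, each against empty vector. Over all genes 22.6%, 40.8% and 1.35% were called in these comparisons. Without R-2HG replicates 1 and 2 the R-2HG counts were 1 and 3. The immediate early gene Egr1 stood at -0.84, -1.50 and -1.20 in IDH1mut, at -0.053, 0 and 0.34 in R-2HG, at -1.42, -0.78 and -1.17 in IDH1wt and at 0.83, 1.07 and 1.15 in empty vector. The empty vector arrays, lowest for Dusp6, were highest for Egr1. IDH1mut and IDH1wt, which did not overlap for Dusp6, overlapped for Egr1 (log2 fold change -0.058 ± 0.19, adjusted p = 0.879). Jun, another immediate early gene, was also highest in empty vector, with -0.50, -0.85 and -0.78 in IDH1mut and 1.11, 1.35 and 1.35 in empty vector.

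Plaur, the urokinase receptor gene, stood at 0.49, 0.63 and 0.54 in IDH1mut, at 0.37, 0.44 and 0.18 in R-2HG, at -0.23, -0.26 and -0.22 in IDH1wt and at -0.053, -0.16 and -0.20 in empty vector. It rose in IDH1mut against empty vector by 0.69 ± 0.079 (adjusted p = 0.000122), so genes listed as ERK targets passed in opposite directions in 1 comparison. Myc, which encodes a growth-promoting transcription factor, was lowest in R-2HG, with -0.98, -0.91 and -0.42 in R-2HG and 0.42, 0.37 and 0.38 in empty vector. Heat shock and dissociation genes, which respond to the handling of cells, were lower in 2 of 10 cases in IDH1mut, in 7 of 10 in R-2HG (2 without R-2HG replicates 1 and 2) and in 2 of 10 in IDH1wt, each against empty vector. Over all genes 12.1%, 24.3% and 0.561% were lower in these comparisons. Array by array the median of the heat shock and dissociation genes ran from -0.058 to -0.020 in IDH1mut, from -0.30 to 0.054 in R-2HG, from -0.017 to 0.029 in IDH1wt and from 0.048 to 0.17 in empty vector. The median does not show Hspa1a and Hspa1b, the inducible HSP70 genes, which were the 2 lower genes of the list in IDH1mut and in IDH1wt.

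Hspa1a stood at -0.22, -0.82 and -0.18 in IDH1mut, at 0.38, 0.32 and 1.70 in R-2HG, at -1.42, -0.77 and -1.33 in IDH1wt and at 3.90, 3.91 and 3.77 in empty vector. Hspa1b stood at -0.75, -1.52 and -0.69 in IDH1mut, at 0.0032, -0.064 and 1.33 in R-2HG, at -3.17, -1.97 and -2.59 in IDH1wt and at 2.45, 2.61 and 2.40 in empty vector. The 3 empty vector arrays, which are also the lowest for Dusp6 and the highest for Egr1 and Jun, were above the other 9 for both genes. Against empty vector the log2 fold change of Hspa1a was -4.27 ± 0.32 in IDH1mut (adjusted p = 1.00e-05), -3.06 ± 0.32 in R-2HG (adjusted p = 7.26e-05; -2.16 with replicate 3 alone) and -5.03 ± 0.32 in IDH1wt (adjusted p = 6.43e-06). Hspa1b was also higher in IDH1mut than in IDH1wt, by 1.59 ± 0.37 (adjusted p = 0.0131). Their sequences are almost the same, which leaves uncertain how the signal divides between these genes. The part of these genes in the Dusp6 and early gene differences was not tested.

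**Figure D4:**
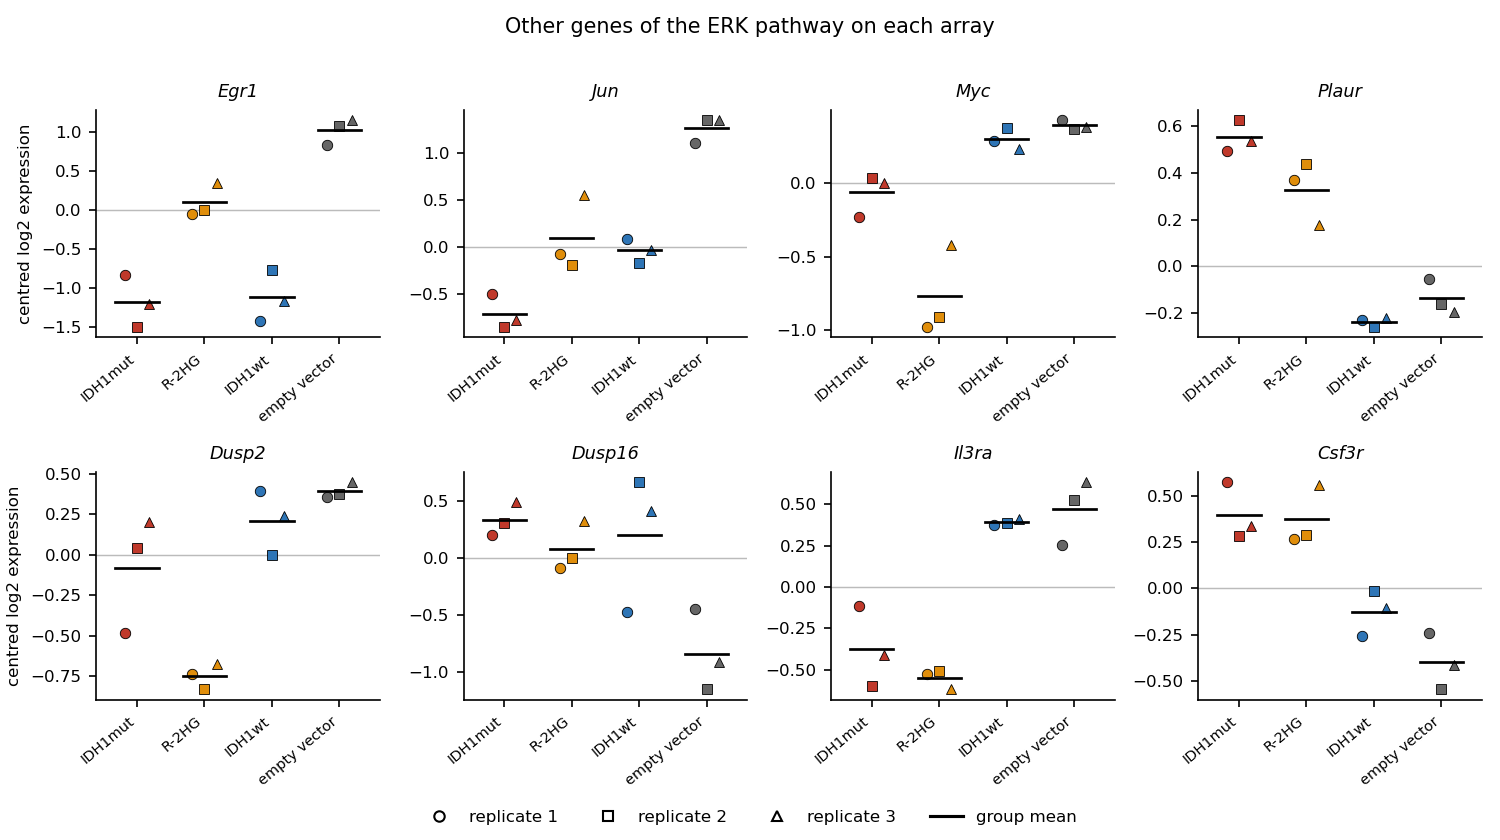
Centred log2 expression (vertical axis, own scale in each panel) of 8 further genes of the pathway on each array, by group, with a bar at the group mean. Egr1 and Jun are highest on the empty vector arrays, and Il3ra is lower on the 6 arrays of IDH1mut and R-2HG than on the other 6.

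Markers of cell types that the sort could hold differed between the groups. For all marker counts against empty vector, the share of all genes called was 22.6% in IDH1mut, 10.5% higher and 12.1% lower. In R-2HG it was 40.8%, 16.5% higher and 24.3% lower. Of 11 measured mast cell, basophil and eosinophil markers (12 listed), 1 was higher and 5 were lower in R-2HG than in empty vector, or 0 and 2 without R-2HG replicates 1 and 2. Their median was -2.58, -2.77 and 0.28 in R-2HG, and ran from -0.56 to -0.050 in IDH1mut, from 0.015 to 0.56 in IDH1wt and from -0.016 to 0.043 in empty vector. It was low on the same 2 arrays on which Spry2 and Spred1 were lowest. This was not particular to that list. In R-2HG replicates 1, 2 and 3 the erythroid median was -1.11, -1.42 and 0, and the dendritic cell median -0.57, -0.41 and 0.44. The neutrophil median (0.25, 0.19 and 0.16) and the primary granule median (-0.25, -0.22 and -0.40) were not lower on replicates 1 and 2. Primary granule and progenitor markers were lower in 7 of 8 cases in IDH1mut and in 8 of 8 in R-2HG (7 without R-2HG replicates 1 and 2), with medians from -0.58 to -0.40 in IDH1mut and from -0.40 to -0.22 in R-2HG, against 0.068 to 0.19 in IDH1wt and 0.14 to 0.28 in empty vector.

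Neutrophil markers (11 of 12 listed were measured) were higher in 7 cases and lower in 0 in IDH1mut, and likewise in R-2HG (6 and 0 without R-2HG replicates 1 and 2). Their medians ran from 0.28 to 0.35 in IDH1mut, from 0.16 to 0.25 in R-2HG, from -0.10 to -0.028 in IDH1wt and from -0.36 to -0.14 in empty vector, with IDH1mut highest and empty vector lowest, as for Dusp6. Erythroid markers (8 of 10) ran from 0.14 to 0.41 in IDH1mut, from -1.42 to 0 in R-2HG, from -0.83 to 0.26 in IDH1wt and from -0.67 to -0.58 in empty vector. B cell markers (9 of 10) ran from 0.45 to 1.49 in IDH1mut, from -0.63 to -0.15 in R-2HG, from -0.59 to 0.31 in IDH1wt and from 0 to 1.04 in empty vector. Against empty vector, erythroid markers were higher in 2 and lower in 0 cases in IDH1mut, and higher in 1 and lower in 0 in R-2HG. B cell markers were higher in 3 and lower in 0 in IDH1mut, and higher in 0 and lower in 3 in R-2HG. Of the other lists, against empty vector, monocyte and macrophage markers (11 of 12) were lower in 5 cases in IDH1mut and 3 in R-2HG with 0 higher (1 lower without R-2HG replicates 1 and 2). T and NK cell markers (8 of 10) were higher in 2 and lower in 1 in IDH1mut and higher in 0 and lower in 2 in R-2HG (0 and 1 without those arrays). Megakaryocyte and platelet markers (6 of 7) gave 0 calls in IDH1mut by limma, with 0 at an unadjusted p under 0.05, and 1 higher in R-2HG (0 without those arrays). Dendritic cell markers (9 of 9) were higher in 3 cases in IDH1mut and lower in 1 in R-2HG (0 without those arrays), and stromal and endothelial markers (8 of 8) were higher in 1 and lower in 1 in IDH1mut and higher in 2 and lower in 2 in R-2HG (0 and 1 without those arrays). Csf3r, Csf1r, Kit, Flt3, Epor and Pdgfrb stand both among the receptors and in a marker list. On centred values it cannot be told which markers are absent, and the part of these lists in the feedback gene results was not tested.

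**Figure D5:**
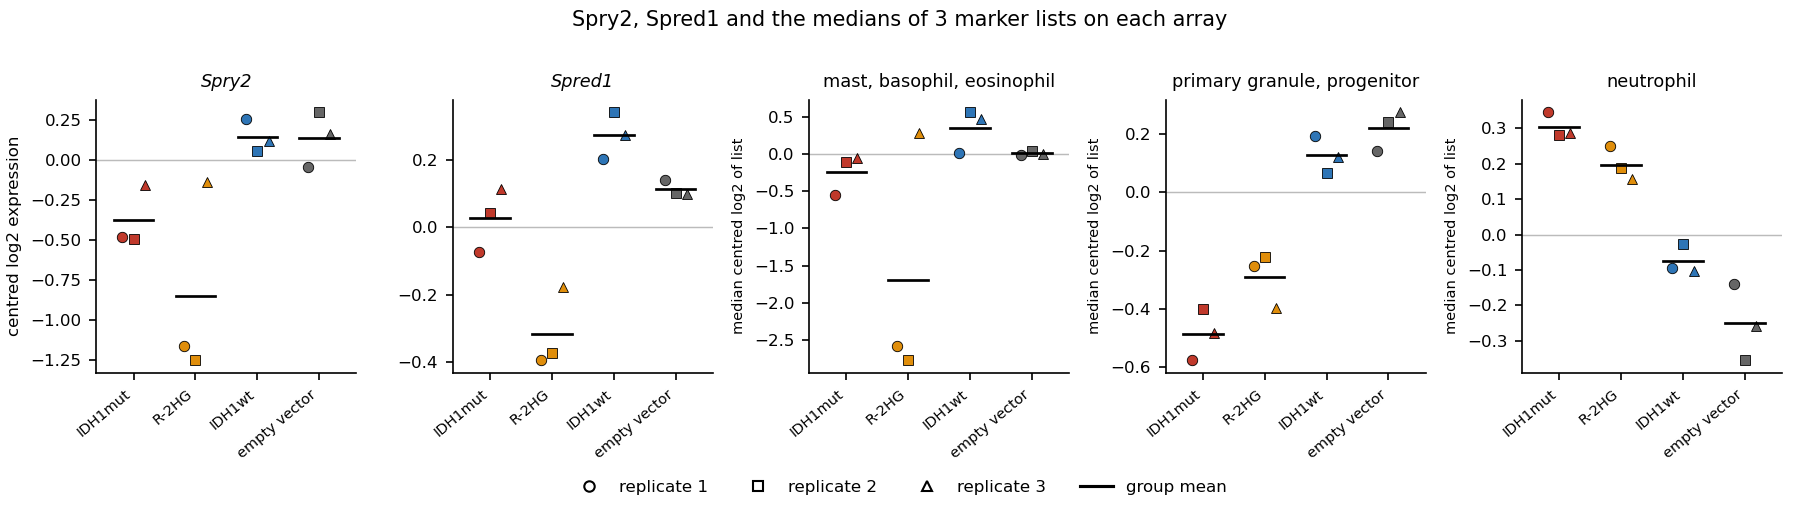
Spry2 and Spred1 (centred log2 expression, left panels) beside the medians of the mast cell, basophil and eosinophil, the primary granule and progenitor, and the neutrophil marker lists (right panels) on each array, by group, with a bar at the group mean. R-2HG replicates 1 and 2 are lowest for Spry2, Spred1 and the first list, and R-2HG replicate 3 lies at 0.28 in that list.

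For the 4 feedback genes whose group means differed most, the 3 genes with the closest values over the 12 arrays were found by the root mean square difference on the log2 scale. The feedback genes and genes with clone or predicted names were left out of this search. Closest to Dusp6 were Ankrd33b (0.112), Mob1a (0.116) and Grina (0.117), where Dusp6 itself had a root mean square of 0.322 about its centre. Grina stood at 0.60, 0.47 and 0.50 in IDH1mut and at -0.28, -0.50 and -0.57 in empty vector. Closest to Spry2 (0.551) were P2rx1, an ATP-gated ion channel gene (0.143), Rcl1 (0.167) and Pank1, a coenzyme A synthesis gene (0.172). P2rx1, like Spry2, was far lower on R-2HG replicates 1 and 2 than on replicate 3, with -1.28, -1.31 and -0.17. Closest to Spred1 (0.227) were Cand1 (0.0616), Styx (0.0671) and Bmi1, a Polycomb gene (0.0676). Closest to Etv4 (0.243) were Fndc11 (0.105), Ntn1 (0.105) and Neu2 (0.106).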

How the data were processed

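Biotin-labelled total RNA from GFP-sorted marrow was measured on 12 Affymetrix mouse arrays. The deposited values are log2 expression values that the authors computed with RMA, per the submitters' processing notes, which name no version. The table holds 32533 probe sets, each centred, with at most 7 of 12 values above 0 and at most 7 below; what the centre is was not given in the sources used here. The number of arrays limits the precision.

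Groups follow the titles. Of the probe sets, 28805 had 1 gene symbol in the platform annotation, 757 had several, of which 0 included a feedback gene, and 2971 had none. A gene's probe sets were averaged (15858 genes) and tested by limma 3.58.1 under R 4.3.3, using lmFit and eBayes with 1 coefficient per group (8 residual and 3.96 prior degrees of freedom). Two-sided p-values were adjusted over the 15858 genes (Benjamini-Hochberg) and called under 0.05; single probe sets were fitted likewise. The fit was tested on simulated data. Named genes are the feedback genes, those among the 3 smallest p of a list's called genes in a comparison, and the 3 closest profiles; not every gene that qualifies is printed. The feedback genes, lists and tests were chosen with earlier results of these data known. R-2HG against IDH1wt, and results without R-2HG replicates 1 and 2 for the F test, lists, pathway genes and single probe sets, were added after the data were seen. The F test without those 2 arrays is not printed here.

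Promoter windows came from RefSeq (GRCm38.p6). Alternatives were a second quantile normalization, single probe sets, the probe set of highest SD, eBayes with trend, array weights, a replicate block, an SD filter at the 30th percentile (which left Dusp4, Spry4 and Spred2 untested), only the 6 arrays compared, a fold change of at least 1.5, and arrays left out. Figures were drawn with matplotlib 3.10.9.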

Additional observations from a re-analysis of the deposited data

How the results depend on the processing

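Of 900 alternative values for single feedback genes, 855 kept their side of the threshold, 27 newly passed it, 14 no longer did and 4 changed sign with a call on one side. A further 68 changed sign with no call on either side. The 4 reversals were all at single probe sets: Spry2 at 1421656_at in R-2HG against empty vector (0.0029), and Spred1 at 1443652_x_at in R-2HG against empty vector (0.18), in IDH1mut against R-2HG (-0.42) and in R-2HG against IDH1wt (0.35). The cause was not tested.

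In IDH1mut against empty vector 1 feedback gene was called, but 2 with single probe sets, with quantile normalization and with only the 6 arrays, and 3 with array weights. In IDH1mut against IDH1wt 1 was called, but 2 with single probe sets, with the probe set of highest SD and with only the 6 arrays, 3 with quantile normalization and with array weights, and 0 when a fold change of 1.5 was also required. In IDH1wt against empty vector 0 were called, but 1 with quantile normalization and 1 with array weights. In R-2HG against empty vector 3 were called, but 1 when a fold change of 1.5 was required and 0 when R-2HG replicates 1 and 2 were left out. In IDH1mut against R-2HG 2 were called, but 4 with array weights, 3 with single probe sets and 0 under either of those 2 rules; with the probe set of highest SD it was again 2, with Etv5 in place of Spred1. In R-2HG against IDH1wt 3 were called, but 4 with single probe sets and with the probe set of highest SD (Etv5 added), 5 with array weights and 1 when R-2HG replicates 1 and 2 were left out. Array weights raised the share of all genes called too, to 30.4% in IDH1mut against empty vector (22.6% in the reported fit), 19.5% in IDH1mut against IDH1wt (15.7%), 8.75% in IDH1wt against empty vector (1.35%), 57.9% in R-2HG against empty vector (40.8%), 48.5% in IDH1mut against R-2HG (36%) and 56.1% in R-2HG against IDH1wt (44.4%). Quantile normalization called 24.7%, 17.7% and 2.64% of all genes in the first 3 of these. Without R-2HG replicates 1 and 2 the last 3 were 11.5%, 2.12% and 10.2%. A stricter rule or fewer arrays are the construction of those settings; for the others the cause was not tested.

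With 1 array left out in turn, the counts ran from 1 to 1 in IDH1mut against empty vector, from 1 to 1 in IDH1mut against IDH1wt, from 0 to 1 in IDH1wt against empty vector, from 3 to 3 in R-2HG against empty vector, from 2 to 3 in IDH1mut against R-2HG and from 2 to 5 in R-2HG against IDH1wt. The counts of 1, 3 and 5 at the upper ends came without empty vector replicate 1 (Dusp6), without R-2HG replicate 3 (Spry2) and without IDH1wt replicate 1 (Dusp5 and Etv5). The F test called 4 genes, and 3 to 5 with an array left out. With the probe set of highest SD and with array weights it again called 4, with Etv5 in place of Etv4. Of all genes, 58.1% and 70.5% were called in those settings. With the replicate number as a block the counts in that order of comparisons were 1, 1, 0, 3, 2 and 4, the last with Dusp5 added (adjusted p = 0.0495), and the F test called 3, without Etv4. The block changed no other call. Deviations of same-numbered arrays from their group means correlated at -0.15 to 0.12. With 3 arrays per group these values cannot settle whether equal numbers mark a shared batch or animal, and the labels do not say.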
